A study of Mus musculus with 12 samples.

Results

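The genes described here encode the synaptic vesicle and the machinery that releases its contents, and 37 genes were listed by name for this role. Probes were assigned to them through the transcript accession that the array files give for each probe. A probe was found for 36 of the 37 genes, all 36 passed the filter on dim probes, and together they had 51 probes among the 19644 genes measured. No probe could be matched to Syt5, which has no value here. The genes were listed by name and function, with earlier results of these data known.

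A synaptic vesicle is loaded with transmitter, held at the active zone of the presynaptic terminal, and fused with the membrane when calcium enters. Vesicular transporters fill the vesicle, Rab3 proteins and the scaffold proteins of the active zone dock it, SNARE proteins pull the membranes together, complexins clamp the assembled SNARE complex, and synaptotagmins sense calcium. Loss of presynaptic proteins is a well-known feature of Alzheimer's disease (AD). The authors compared transgenic mice, treated mice, and untreated mice of several ages with human AD.

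Each of the 12 one-colour arrays carried brain RNA pooled from 3 mice, and each model had 1 array. The cortex set held 4 arrays of prefrontal cortex from C57BL/6 mice aged 1.5, 4, 17, or 22 months. The transgenic set held 3 arrays of hippocampus from mice labelled C57BL/6, namely mice with a mutated human NCSTN gene (10 months old), mice with the wild-type human MAPT gene (12 months old), and 5×FAD mice (6 months old). NCSTN is a subunit of γ-secretase, MAPT encodes tau, and 5×FAD mice carry human transgenes driven by the neuronal Thy1 promoter. The promoters of the NCSTN and MAPT transgenes were not given in the sources used here. The ICR set held 5 arrays of hippocampus from ICR mice aged 7 weeks, and each of these mice had received an agent. Aggregated amyloid-β (Aβ), at 5 μM on 1 array and 10 μM on another, was injected into the cerebral ventricle 14 days before dissection. Streptozotocin was given by the same route and at the same time, at 2.5 mg/kg on 1 array and 3 mg/kg on another, and scopolamine (1 mg/kg) was injected into the peritoneum 30 min before dissection.

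Every value below is a log2 signal after quantile normalization over the 12 arrays, or a log2 ratio, which is the log2 signal of an array minus the mean of the other arrays of its set. Control arrays for the transgenes and the agents were not analysed here, so in hippocampus a ratio compares models with each other, and in cortex it compares ages of C57BL/6 mice. The ratios of a gene within a set add up to 0, so that a high value on 1 array makes the remaining ratios lower. With 1 array per model there is no biological replicate and no test, and every comparison is a description of these pools. The error that the scanner software assigned to a ratio had a median over the genes of 0.161 to 0.177, depending on the set, and repeated spots of a probe varied with a median SD of 0.045 to 0.059. Both cover the spot measurement only. In bulk tissue, fewer cells of a type and less RNA per cell cannot be told apart.

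Between 63.5% and 75.8% of all probes were well above background on an array, and no spot was saturated. Of the 36 genes, 34 were well above background on all 12 arrays, and the exceptions were Syt2 and Sv2c. Hippocampus markers had a summed signal of 31332 to 51408 on the 8 hippocampus arrays and 12363 to 20983 on the 4 cortex arrays, as the labels have it. The methods describe the transgenic mice as male, but Xist was between 9.20 and 9.58 on the 3 transgenic arrays and at most 2.70 on the 9 others. The Y-linked genes Ddx3y and Eif2s3y were at most 2.32 on the transgenic arrays and at least 9.21 on the others. The ratios of the transgenic arrays were taken only within that set, where these genes are alike. Within that set the model cannot be told apart from age. Other tissue was unequally present as well. All 10 choroid plexus markers were higher on the Aβ and scopolamine arrays than the means of the other ICR arrays and lower on the streptozotocin arrays, and 9 of 10 were higher on the 17-month cortex array.

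Promoter windows were available for 28 of the 37 genes, as 37 windows of 250 bases before to 50 bases after a RefSeq transcript start (GRCm38.p6). A GC box, spelled GGGCGG or CCGCCC on the other strand, was found in 26 of the 37 windows (70.3%) and in 35.7% of 32851 windows of all genes. It was present for 24 of the 28 genes. A part of the RE1 element, spelled TTCAGCACC or GGTGCTGAA, was found in the windows of Syn1 and Unc13a (5.41%) and in 0.371% of all windows. The whole element was not searched. The cyclic AMP response element TGACGTCA was found in the Syn1 window and in 1.79% of all windows. Windows of 4 genes are shown because Cplx2 was the lowest and Syngr1 the highest gene on the 5×FAD array, and because Syn1 and Unc13a held the rare motif. Capitals mark the GC boxes and the RE1 part, each searched on both strands, and none of these matches overlapped another.
Cplx2 (chr13:54302306-54302605, plus strand): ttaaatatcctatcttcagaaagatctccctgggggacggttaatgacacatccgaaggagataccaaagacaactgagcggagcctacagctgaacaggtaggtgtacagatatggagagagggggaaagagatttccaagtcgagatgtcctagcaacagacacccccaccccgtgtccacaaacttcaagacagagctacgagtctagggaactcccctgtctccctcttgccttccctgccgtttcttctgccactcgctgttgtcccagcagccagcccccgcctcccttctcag
Syngr1 (chr15:80091084-80091383, plus strand): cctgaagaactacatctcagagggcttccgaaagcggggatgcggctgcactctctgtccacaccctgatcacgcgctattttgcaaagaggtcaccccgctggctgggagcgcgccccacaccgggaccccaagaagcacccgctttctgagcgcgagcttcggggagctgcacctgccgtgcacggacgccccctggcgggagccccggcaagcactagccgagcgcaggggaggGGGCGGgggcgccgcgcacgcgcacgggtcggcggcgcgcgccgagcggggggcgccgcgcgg
Syn1 (chrX:20920869-20921168, minus strand): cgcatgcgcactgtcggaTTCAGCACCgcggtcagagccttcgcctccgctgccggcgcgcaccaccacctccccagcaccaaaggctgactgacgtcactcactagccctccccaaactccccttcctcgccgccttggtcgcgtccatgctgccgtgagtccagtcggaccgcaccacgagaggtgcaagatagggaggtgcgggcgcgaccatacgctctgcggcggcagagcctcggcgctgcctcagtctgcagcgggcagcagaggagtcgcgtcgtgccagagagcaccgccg
Unc13a (chr8:71671708-71672007, minus strand): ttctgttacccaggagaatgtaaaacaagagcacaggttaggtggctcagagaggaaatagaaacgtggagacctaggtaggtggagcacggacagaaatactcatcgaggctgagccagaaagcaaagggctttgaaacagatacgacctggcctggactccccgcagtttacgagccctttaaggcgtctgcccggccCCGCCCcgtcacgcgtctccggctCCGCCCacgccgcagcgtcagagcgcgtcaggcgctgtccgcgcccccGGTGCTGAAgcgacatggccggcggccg
A match is a description of the letters only. The Cplx2 window held no GC box, the Syngr1 window held 1, and the Unc13a window held 2 in addition to the RE1 part. The Syn1 window held the RE1 part alone of these motifs in capitals.

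The median release gene spanned 0.35 between its lowest and highest array in cortex, 0.45 in transgenic hippocampus, and 0.35 in ICR hippocampus, where the median of all genes spanned 0.39, 0.45, and 0.41. Their values passed 1.5-fold in 12 of 144 cases in cortex (8.33%, against 10.6% of all values), in 22 of 108 cases in transgenic hippocampus (20.4%, against 18.3%), and in 9 of 180 cases in ICR hippocampus (5%, against 12.7%). The median of the 36 ratios stood farthest from 0 on the 5×FAD array, at -0.32, and the next was MAPT at 0.19. The medians of NCSTN and streptozotocin 3 mg/kg were 0.14 and 0.18, and those of the remaining 8 arrays lay between -0.096 and 0.047.

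**Figure D1:**
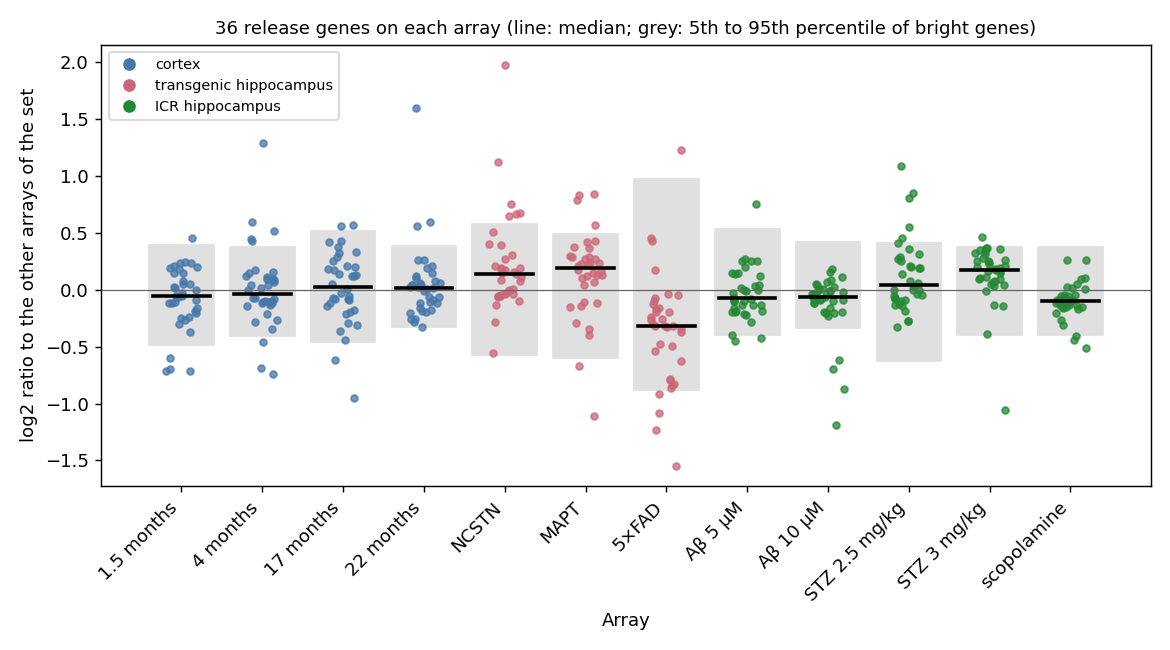
Log2 ratio of each of the 36 release genes to the other arrays of its set (y axis) on each of the 12 arrays (x axis). Black lines are medians, grey boxes span the 5th to 95th percentile of 14012 genes well above background on all arrays, and colours mark the 3 sets. The median of 5×FAD is -0.32, and that of streptozotocin 3 mg/kg is 0.18.

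In the transgenic hippocampus, most release genes were lower in 5×FAD than in the NCSTN and MAPT mice. On the 5×FAD array 32 of 36 genes had a ratio below 0, as did 56% of all genes, and the median of all genes was -0.055. At least 1.5-fold lower were 10 of the 36 (13.5% of all genes) and at least 1.5-fold higher was 1 (13.3% of all genes). At least 2-fold lower were 3 (4.7% of all genes) and 2-fold higher was 1 (6.05% of all genes). The array was the lowest of the set for 27 release genes and for 46.3% of all genes. The median without the NCSTN or the MAPT array stayed between -0.32 and -0.27.

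The fusion genes, SNARE proteins and complexins, were all 7 below 0 on the 5×FAD array, with a median of -0.35. Cplx2, a complexin of forebrain neurons that clamps SNARE complexes, had a log2 signal of 16.30 in NCSTN, 16.32 in MAPT, and 14.76 in 5×FAD. The NCSTN and MAPT arrays differed by 0.02 and 5×FAD stood apart, with a ratio of -1.55, the lowest of the 36. Cplx3, the complexin of ribbon synapses and some cortical neurons, had 7.86, 7.83, and 7.35 in the same order, and a ratio of -0.50. Cplx1, the complexin abundant in inhibitory and brainstem neurons, had 15.02, 15.27, and 14.77. The SNARE genes differed less. Vamp2, the main vesicle SNARE of the forebrain, had 15.17, 15.30, and 14.89, and its ratio in 5×FAD was -0.35. Vamp1, its relative of faster-firing neurons, had a ratio of -0.31. Stx1a and Snap25, the SNAREs of the plasma membrane, had ratios of -0.03 and -0.17, inside or near 1 scanner error.

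Among the calcium sensors, 5 of 6 measured synaptotagmins were below 0 in 5×FAD. Syt17, a synaptotagmin without a membrane-spanning segment, had 9.29 in NCSTN, 9.59 in MAPT, and 8.20 in 5×FAD, and a ratio of -1.24. Syt4, a synaptotagmin of dense-core vesicles whose calcium binding is weak, had 11.40, 11.43, and 10.33, and a ratio of -1.08. Both genes were thus lower in 5×FAD by more than 2-fold, while the fast sensor of forebrain vesicles, Syt1, had 16.14, 16.26, and 16.13 and a ratio of -0.07. Syt17 and Syt4 have 1 probe each, so their values could not be compared between probes. Syt7, a slow sensor, had a ratio of -0.54 and Syt2, the fast sensor of inhibitory and brainstem neurons, -0.32. Syt11, a synaptotagmin that does not bind calcium, went the other way, with 14.53, 14.62, and 15.00 and a ratio of 0.43.

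With probes averaged, all 10 Rab3 and active zone genes were below 0 in 5×FAD, with a median of -0.28, and they ranged from -0.92 to -0.05. Unc13c, a Munc13 priming factor, had a log2 signal of 9.37 in NCSTN, 9.11 in MAPT, and 8.32 in 5×FAD. Unc13a, the main Munc13 of excitatory terminals, had 7.67, 8.26, and 7.18, so that its ratio of -0.78 came from a high MAPT value as well as a low 5×FAD value. Rab3b, a Rab3 of some interneurons and endocrine cells, had 13.13, 13.29, and 12.59, and a ratio of -0.62. The abundant Rab3a had 16.41, 16.52, and 16.42, and its ratio of -0.05 was the nearest to 0 of the 10. The scaffold genes Bsn, Rims1, Rims2, Rims3, and Pclo had ratios of -0.16, -0.09, -0.26, -0.30, and -0.48.

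The vesicle's own proteins were divided. Sv2b, an SV2 glycoprotein of the vesicle membrane, had 13.09 in NCSTN, 13.10 in MAPT, and 12.26 in 5×FAD, and a ratio of -0.83, whereas Sv2a, its widely expressed relative, had -0.13. Slc17a6, the glutamate transporter of thalamic and other subcortical terminals, had 9.78, 9.41, and 8.80. Slc17a7, the glutamate transporter of cortical and hippocampal terminals, had 11.76, 11.53, and 12.10 and opposed it with a ratio of 0.46. Syn3, a synapsin, had a ratio of -0.83, and its probe that was well above background on all arrays had -0.74. Syn1, Syn2, Syp, Sncb, and Syngr3, which encode synapsins, synaptophysin, β-synuclein, and a synaptogyrin, had ratios between -0.32 and -0.19. Sypl, a synaptophysin relative found in many tissues, had 0.18. Sv2c was at 5.24, 3.18, and 3.35, so that its ratio of -0.87 came from a high NCSTN value, and without the NCSTN array the ratio was 0.17.

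**Figure D2:**
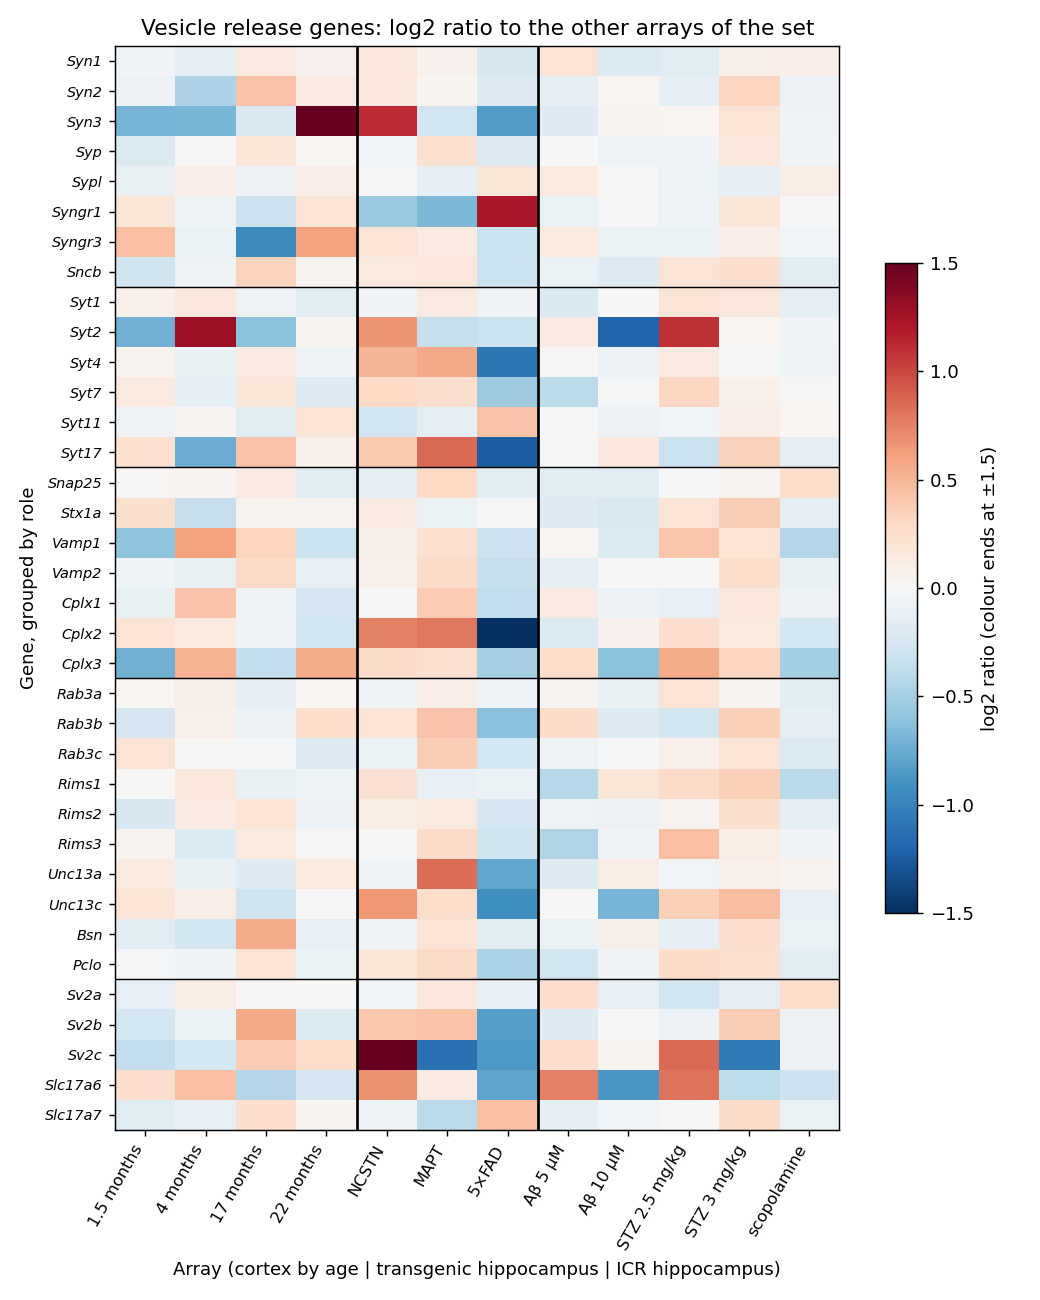
Log2 ratio (colour, blue lower and red higher, ending at ±1.5) of each release gene (rows, grouped by role) on each array (columns, grouped by set) to the other arrays of the set. In the 5×FAD column all 7 SNARE and complexin genes and all 10 Rab3 and active zone genes are below 0, and Syngr1, at 1.23, is the strongest red.

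The largest values in 5×FAD depended on the probe. Cplx2 has 4 probes, all for NM_009946 and all well above background, and their ratios in 5×FAD were -0.48, -3.08, -1.12, and -1.51. The 4 probes were lower in the same direction but differed in size. Syngr1, a synaptogyrin, had the only ratio past 1.5-fold upward, 1.23, and its 2 probes differed completely. The probe for NM_009303 had a log2 signal of 9.68 in NCSTN, 9.52 in MAPT, and 12.04 in 5×FAD, whereas the probe for NM_207708 had 12.13, 12.13, and 12.15. The ratios were 2.44 and 0.02, so the higher Syngr1 value came from the probe of NM_009303 alone. The 4 probes of Pclo had ratios of -1.71, 0.02, 0.36, and -0.58, which differ in sign. The 2 probes of Rims1 differed in sign as well, with ratios of 0.28 and -0.47. Unequal probes were more frequent on this array among all genes. Of 3656 genes with several bright probes, 13.0% had probes at least 2-fold apart in 5×FAD, against 0.356% to 3.31% on the other 11 arrays.

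**Figure D3:**
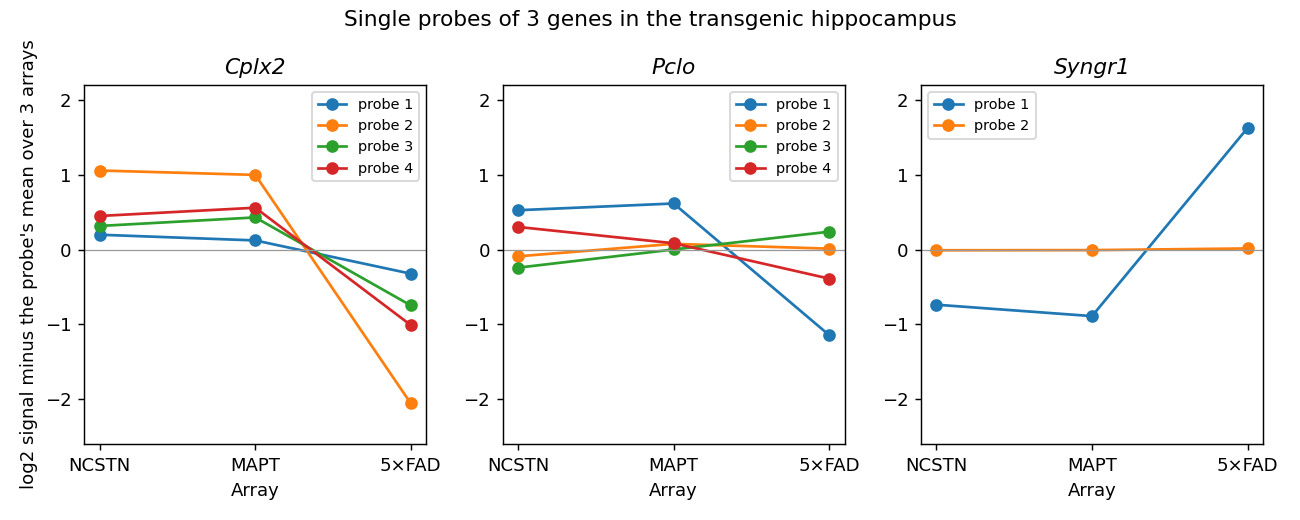
Log2 signal of each probe of Cplx2, Pclo, and Syngr1 minus the mean of that probe over the 3 transgenic arrays (y axis), by array (x axis); each line is 1 probe and no error is drawn. All 4 Cplx2 probes are lowest in 5×FAD, the Pclo probes go different ways, and only probe 1 of Syngr1, for NM_009303, is high in 5×FAD.

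Markers of other cells moved with the 5×FAD values. All 11 measured microglia markers were higher there, with a median ratio of 1.31 and a summed signal of 108551 against 25831 and 26421 on the other transgenic arrays. All 10 markers of inhibitory neurons were lower (median -0.53, summed signal 32677 against 53487 and 58021), as were 9 of 10 markers of excitatory neurons (median -0.34, summed signal 44951 against 48982 and 49726). Of 12 pan-neuronal markers, 7 were higher and the median was 0.05, with a summed signal of 354038 against 267576 and 272591. Most of the difference in the sum was Thy1, with a log2 signal of 17.41 against 16.56 and 16.58, while Map2, Uchl1, Tubb3, Elavl4, and Rbfox3 were lower, with ratios from -0.68 to -0.17. Of 10 astrocyte markers 8 were higher (median 0.33, summed signal 328492 against 267112 and 278031), and of 8 endothelium markers 1 was higher (median -0.44, summed signal 10598 against 14925 and 15177). Of 12 hippocampus markers 5 were higher (median -0.51, summed signal 34630 against 32744 and 31332), of 10 oligodendrocyte markers 7 (median 0.44, summed signal 218220 against 145678 and 170489), and of 10 choroid plexus markers 8 (median 0.50, summed signal 203467 against 185892 and 200161). All the markers of these 9 lists were well above background on the 3 arrays, none being at 0, and their part in the release gene values was not tested.

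Outside 5×FAD, the transgenic mice differed in a few genes. The ratios of NCSTN and MAPT contain the 5×FAD array in their reference, and with that array left out the median NCSTN ratio to MAPT was -0.023. Cplx2, with a ratio of 0.76 in NCSTN, then had -0.02. In NCSTN 6 genes were at least 1.5-fold higher (7.31% of all genes) and 0 lower (7.38% of all genes), and in MAPT 3 were higher (5.45% of all genes) and 2 lower (8.05% of all genes). Sv2c was the extreme of both, 1.98 in NCSTN and -1.11 in MAPT. Syn3 had 5.99 in NCSTN and 5.05 in MAPT, but its brighter probe differed less, with 8.52 and 8.31, and the other probe was not well above background on either array. Slc17a6, Unc13c, and Syt2 were also at least 1.5-fold higher in NCSTN by these ratios. With 5×FAD left out, Slc17a6 and Unc13c had 0.37 and 0.26, short of 1.5-fold, and Syt2 had 0.67. In MAPT the higher genes were Syt17, Unc13a, and Cplx2, at 0.84, 0.83, and 0.79. With 5×FAD left out they had 0.30, 0.59, and 0.02, so that Syt17 and Cplx2 fell short of 1.5-fold. Syngr1 was lowest in NCSTN, at -0.56, and second lowest in MAPT, at -0.67, with the high 5×FAD value in both references. The other genes at the lower end were Syt11 and Snap25 in NCSTN, at -0.28 and -0.13, and Slc17a7 in MAPT, at -0.40.

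In the cortex the release genes had medians close to 0 at every age, and single genes differed. The medians were -0.053 at 1.5 months, -0.035 at 4 months, 0.029 at 17 months, and 0.018 at 22 months. Within the set, 24 of 36 genes spanned less than 0.5 between their lowest and highest age. At least 1.5-fold higher were 0, 2, 0, and 2 genes in order of age (4.83%, 4.47%, 6.55%, and 4.72% of all genes), and at least 1.5-fold lower were 4, 2, 2, and 0 (6.55%, 4.94%, 5.55%, and 4.63%). A count of 2 is 5.56% and a count of 4 is 11.1% of the 36.

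Syt2, Vamp1, and Cplx1 were highest at 4 months, and Syt2, Vamp1, Cplx3, and Syn3 were the 4 genes at least 1.5-fold lower at 1.5 months. The Syn3 probe that was well above background on all arrays had a ratio of -0.39 at 1.5 months and -0.31 at 4 months, both short of 1.5-fold. Syt2 had a log2 signal of 5.65 at 1.5 months, 7.16 at 4 months, 5.73 at 17 months, and 6.22 at 22 months. The 4-month value stood above the other 3, with a ratio of 1.29, the largest at that age. Vamp1 had 12.14, 13.04, 12.83, and 12.35 in order of age, and ratios of -0.60 at 1.5 months and 0.60 at 4 months. Cplx1 had 15.30, 15.70, 15.34, and 15.19, again with its highest value at 4 months. Cplx3 had 7.98, 8.91, 8.24, and 8.94, high at 4 and at 22 months. Of 10 inhibitory neuron markers 4 were above 0 at 4 months, with a median of -0.02, and the highest was Pvalb, the marker of fast-spiking interneurons, at 0.74. All 10 oligodendrocyte markers were higher at 4 months, with a summed signal of 139730 against 69528 to 105529 at the other ages, and all 10 were well above background at each age. The part of these cells in the values was not tested.

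**Figure D4:**
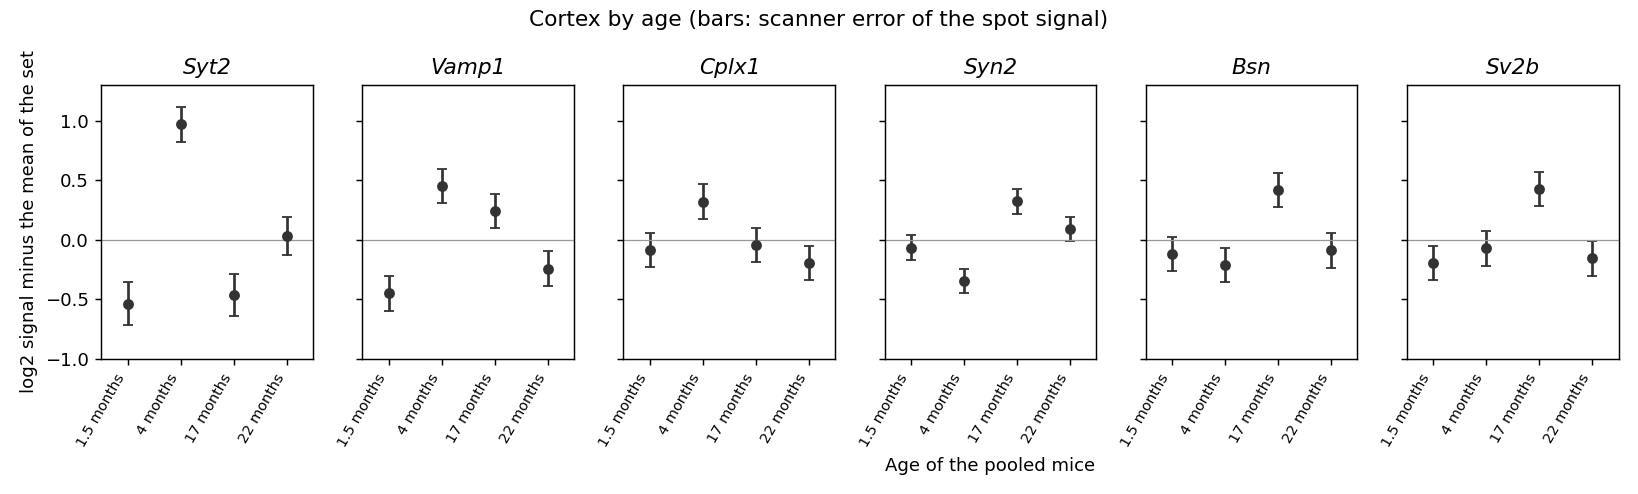
Log2 signal minus the mean of the 4 cortex arrays (y axis) of 6 release genes by age (x axis, in order and not to scale). Each point is 1 array of 3 pooled mice, and bars are the error that the scanner software gives for the signal. Syt2, Vamp1, and Cplx1 are highest at 4 months, and Syn2, Bsn, and Sv2b at 17 months.

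At 17 months 16 release genes had their highest value of the set, and 30.0% of all genes did. Sv2b had 13.23, 13.35, 13.85, and 13.27 in order of age, and Bsn, the giant scaffold of the active zone, had 13.85, 13.76, 14.39, and 13.88. Both stood above the other 3 ages at 17 months, with ratios of 0.57 and 0.56. Syn2, a synapsin that tethers vesicles, had 13.52, 13.24, 13.91, and 13.67, with a ratio of 0.43 at 17 months and -0.46 at 4 months. In the other direction, Syngr3 had 9.95, 9.54, 8.90, and 10.06, and its ratio of -0.95 at 17 months was the lowest of any release gene in the cortex. Syt2 and Slc17a6 were the next lowest at 17 months, at -0.62 and -0.44. On the same array 9 of 10 choroid plexus markers were higher, with a summed signal of 78615 against 18333 to 21152 at the other ages, and between 6 and 9 of the 10 were well above background on each cortex array. All 10 oligodendrocyte markers were lower at 17 months, with a median of -0.60 and a summed signal of 69528 against 74068 to 139730. Their part in these values was not tested.

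Release genes separated the older from the younger cortex about as often as all genes did. Both older ages were above both younger ages for 8 of 36 genes (20.1% of all genes) and below for 6 (15.1% of all genes), and the median difference was 0.025, against 0.012 for all genes. The 8 higher genes were Syn1, Syn2, Syn3, Syp, Sncb, Bsn, Sv2c, and Slc17a7, and the 6 lower genes were Syt1, Cplx2, Rab3c, Rims1, Unc13c, and Slc17a6. Single probes did not all separate the ages, and probe 1 of Syn3, Sv2c, Cplx2, Rab3c, and Rims1 overlapped between them. With means at least 25% apart on the linear scale there were 4 higher (8.65% of all genes) and 1 lower (5.7% of all genes). The largest differences upward were Syn3 at 1.04, Sv2c at 0.48, Syn2 at 0.41, Bsn at 0.33, and Sncb at 0.28. The largest downward were Slc17a6 at -0.52, Cplx2 at -0.27, Unc13c at -0.22, Syt1 at -0.17, and Rab3c at -0.16. The glutamate transporters thus went opposite ways. Slc17a6 had 9.21, 9.36, 8.69, and 8.83 in order of age, and Slc17a7 had 12.04, 12.08, 12.36, and 12.20.

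Steps in 1 direction across all 4 ages were taken by 3 genes. Cplx2 had 16.48, 16.43, 16.27, and 16.11, and Rab3c, a Rab3 of the vesicle surface, had 14.18, 14.04, 14.01, and 13.88. Averaged over probes, each was lower at every step (3.03% of all genes). Of the single probes, probe 4 of Cplx2 and probes 2 and 3 of Rab3c fell at every step. Probe 1 of Cplx2 had 16.58, 16.70, 16.70, and 16.63, and probe 1 of Rab3c had 13.96, 13.98, 13.98, and 13.90. Probe 2 of Cplx2 was highest at 4 months, and its probe 3 had the same value at 4 and 17 months. Syn3 was higher at every step (3.74% of all genes), with 5.29, 5.30, 5.65, and 7.01. The high Syn3 value at 22 months came from a probe that was well above background on that array alone, with 1.70 at 17 months and 4.84 at 22 months. Its other probe, well above background on all arrays, had 8.85, 8.91, 9.61, and 9.19 and was highest at 17 months. Syt17 was low at 4 months alone, with 8.97, 8.24, 9.11, and 8.85. Sv2c was not well above background at 1.5 months, and was at least 1.15-fold lower there than the mean of the other ages. Its probes, with ratios of 0.07 and -0.81 at that age, differed in sign.

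In the ICR hippocampus the Aβ arrays had lower release gene values than the streptozotocin arrays. Both Aβ arrays were below both streptozotocin arrays for 16 of 36 genes (27.4% of all genes) and above for 2 (19.8% of all genes), with a median difference of -0.15, against -0.03 for all genes. With means at least 25% apart on the linear scale 6 genes were lower (9.25% of all genes) and 0 higher (10.8% of all genes). The 16 lower differences ran from -0.61 to -0.15, and all but Unc13c were below 1.5-fold. Among the 16 were 6 of the 7 SNARE and complexin genes, namely Snap25, Stx1a, Vamp1, Vamp2, Cplx2, and Cplx3, and 6 active zone and Rab3 genes, namely Rab3c, Rims1, Rims2, Rims3, Unc13c, and Pclo. The other 4 were Sncb, Syt1, Syt7, and Slc17a7, and the 2 higher genes were Sv2a and Sypl, with differences of 0.22 and 0.13. These calls average the probes of a gene. Probe 1 of Cplx2 went the other way, with 16.43 and 16.43 on the Aβ arrays against 16.35 and 16.38 with streptozotocin. Probe 1 of Rab3c, Rims1, and Syt7 and probe 3 of Pclo overlapped between the agents. The other probes of these genes were lower on both Aβ arrays. Probe 2 of Sypl overlapped as well. When 1 of the 4 arrays was left out, the median difference lay between -0.21 and -0.10.

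The 6 largest of these differences were in Unc13c, Cplx3, Rims3, Stx1a, Rims1, and Pclo. Unc13c had a log2 signal of 8.80 at Aβ 5 μM, 8.25 at Aβ 10 μM, 9.09 at streptozotocin 2.5 mg/kg, 9.18 at streptozotocin 3 mg/kg, and 8.71 with scopolamine. The Aβ mean was lower by 0.61, and most of this came from the 10 μM array. Cplx3 had 7.25, 6.55, 7.49, 7.30, and 6.64 in the same order, so that Aβ 10 μM and scopolamine were the low arrays. Rims3, a short RIM protein of the active zone, had 4.72, 5.02, 5.44, 5.17, and 5.04. Stx1a had 11.03, 11.00, 11.33, 11.48, and 11.08, with both Aβ arrays and scopolamine below both streptozotocin arrays. Rims1, the main RIM scaffold, had 7.92, 8.40, 8.49, 8.54, and 7.93, and its low values were Aβ 5 μM and scopolamine. Pclo had 9.94, 10.13, 10.39, 10.35, and 10.05, and both of its high values were streptozotocin.

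**Figure D5:**
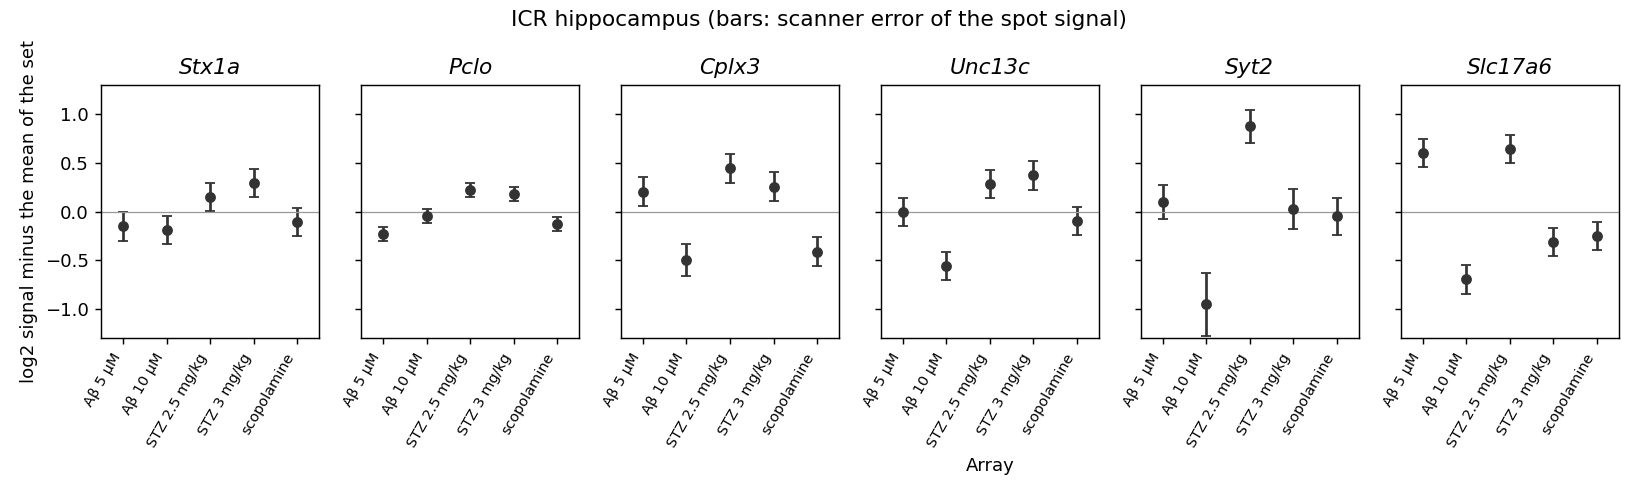
Log2 signal minus the mean of the 5 ICR arrays (y axis) of 6 release genes by treatment (x axis). Each point is 1 array of 3 pooled mice, and bars are the error that the scanner software gives for the signal. Stx1a and Pclo are highest on both streptozotocin arrays, whereas Syt2 and Slc17a6 differ between the doses of each agent.

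By array, streptozotocin 3 mg/kg had the highest release gene values. On it 31 of 36 genes were above 0 (53.6% of all genes), including all 7 SNARE and complexin genes and all 10 Rab3 and active zone genes, and it was the highest array of the set for 18 genes, against 23.2% of all genes. The ratios were small. None was 1.5-fold higher (5.17% of all genes), the largest being Unc13c at 0.47, Sv2b at 0.37, and Stx1a at 0.37. At least 1.5-fold lower was 1 (6.28% of all genes), Sv2c at -1.06, followed by Slc17a6 at -0.39 and Sypl at -0.15. The Sv2c probe that was well above background on every ICR array had a ratio of -0.64 there. Its other probe was not well above background on any of them. At 2.5 mg/kg the median was 0.05, with 20 of 36 above 0 (50.8% of all genes), 3 genes at least 1.5-fold higher (5.68% of all genes), and 0 lower (9.67% of all genes). Its lowest genes were Syt17, Rab3b, and Sv2a, at -0.33, -0.28, and -0.27.

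With scopolamine 28 of 36 genes were below 0 (51.7% of all genes), and no gene passed 1.5-fold (5.83% of all genes are higher and 6.06% lower by that much). The median was -0.10. The lowest were Cplx3 at -0.51, Vamp1 at -0.44, and Rims1 at -0.40, and the highest were Sv2a and Snap25, both at 0.26, and Sypl at 0.11. At Aβ 5 μM 22 of 36 were below 0 (57.7% of all genes), and at Aβ 10 μM 26 were (52.4% of all genes). At Aβ 5 μM Rims3, Rims1, and Syt7 were lowest, at -0.45, -0.42, and -0.39, and Slc17a6, Rab3b, and Cplx3 highest, at 0.76, 0.27, and 0.26. Slc17a6 was the 1 gene past 1.5-fold higher there (7.86% of all genes), and 0 were lower (4.73% of all genes). At Aβ 10 μM 4 genes were at least 1.5-fold lower (5.2% of all genes) and 0 higher (6.85% of all genes), the 4 being Syt2, Slc17a6, Unc13c, and Cplx3. The highest at that dose were Rims1, Syt17, and Unc13a, at 0.18, 0.16, and 0.12.

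Slc17a6, Syt2, and Sv2c differed between the doses of an agent. Slc17a6 had 9.97 at Aβ 5 μM and 8.67 at Aβ 10 μM, and 10.01 at streptozotocin 2.5 mg/kg and 9.05 at streptozotocin 3 mg/kg, with 9.11 for scopolamine. Syt2 had 5.75, 4.70, 6.53, 5.68, and 5.61 in the order Aβ 5 and 10 μM, streptozotocin 2.5 and 3 mg/kg, and scopolamine. It was not well above background at Aβ 10 μM, and was at least 2.28-fold lower there than the mean of the other 4 arrays. Sv2c, the SV2 protein of the basal ganglia and some hippocampal cells, had 6.58, 6.42, 7.06, 5.54, and 6.31. Its probe that was well above background on these arrays had 8.91, 8.62, 9.40, 8.23, and 8.54.

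Markers of other tissue moved with the treatments. The summed signal of the 10 choroid plexus markers was 303012 and 332474 on the Aβ arrays, 15939 and 18134 on the streptozotocin arrays, and 309663 with scopolamine, and 8 to 10 of them were well above background. At Aβ 5 μM Pou4f1, a transcription factor of the habenula, had a ratio of 3.92 and Tac2, a habenular neuropeptide gene, 1.79, beside a high Slc17a6. Of the 10 thalamus and habenula markers, 6 were above 0 there, with a summed signal of 7393 against 3468 to 4735 on the other ICR arrays, and 8 to 10 were well above background. At streptozotocin 2.5 mg/kg, where Slc17a6 was as high at 10.01, these markers were at their lowest sum, 3468, with 2 of 10 above 0. Markers of excitatory neurons had medians of -0.29 and -0.0001 on the Aβ arrays, 0.30 and 0.17 on the streptozotocin arrays, and -0.19 with scopolamine, and 10 and 9 of the 10 were above 0 with streptozotocin. Their summed signal was between 44341 and 55963 over the 5 arrays, and all 10 were well above background. Of 12 pan-neuronal markers 3 and 5 were above 0 on the Aβ arrays, 9 and 11 on the streptozotocin arrays, and 3 with scopolamine. Of 11 microglia markers 0 and 3 were above 0 on the Aβ arrays (medians -0.23 and -0.10), 10 and 10 on the streptozotocin arrays (0.14 and 0.26), and 7 with scopolamine (0.01), with a summed signal of 18164 to 24663. All 8 endothelium markers were above 0 on both Aβ arrays (0.35 and 0.27), 1 and 2 on the streptozotocin arrays (-0.19 and -0.15), and 1 with scopolamine (-0.25), with a summed signal of 10945 to 16400. Oligodendrocyte markers divided the doses, with 10 of 10 above 0 at Aβ 5 μM and 0 at Aβ 10 μM (0.35 and -0.58), 8 and 0 with streptozotocin (0.11 and -0.30), and 10 with scopolamine (0.42), and a summed signal of 96778 to 176051. All markers of these 4 lists were well above background on the 5 arrays. Of 12 hippocampus markers 5 and 8 were above 0 on the Aβ arrays, 11 and 5 on the streptozotocin arrays, and 3 with scopolamine. Their summed signal was between 31509 and 51408, highest at streptozotocin 2.5 mg/kg. Of 10 inhibitory neuron markers 4 and 4 were above 0 on the Aβ arrays, 4 and 10 on the streptozotocin arrays, and 4 with scopolamine. The markers of both lists were well above background on every ICR array. The part of the cells that these markers stand for in the release gene values was not tested.

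The other genes of the vesicle cycle, 82 genes of fusion, active zone, vesicle, and endocytosis, had medians between -0.14 and 0.14 over the 12 arrays. In 5×FAD 51 of 82 were below 0 (56% of all genes) and the median was -0.14. With streptozotocin 3 mg/kg 60 of 82 were above 0 (53.6% of all genes) and the median was 0.14. The Aβ arrays were both below the streptozotocin arrays for 30 of 82 (27.4% of all genes) and both above for 5 (19.8% of all genes). In the cortex 16 of 82 were above at both older ages (20.1% of all genes) and 11 below (15.1% of all genes). Of the 24 other fusion genes, 16 were below 0 in 5×FAD (56% of all genes), with a median of -0.24.

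Few of these 82 passed 2-fold. Syt10, a synaptotagmin of secretory vesicles, opposed the others in 5×FAD with a ratio of 2.74 (-1.56 in NCSTN and -1.18 in MAPT), as did Syngr2, a synaptogyrin outside neurons, with 1.16. Doc2a, a calcium sensor of spontaneous release, had 1.08 in NCSTN. Syt9, a fast calcium sensor, had 2.16 at Aβ 5 μM and -1.87 at streptozotocin 2.5 mg/kg. Slc18a3, the vesicular acetylcholine transporter, had 1.86 at Aβ 5 μM and 1.13 in the 22-month cortex, where Synpr, a synaptophysin relative, had 1.09.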

How the data were processed

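The 12 arrays, Agilent Mouse Whole Genome slides of cortex or hippocampus, stood for 1 model each. Spot intensities, as written by the Feature Extraction software and without normalization across arrays, were deposited by the authors. A deposited matrix held processed intensity values of the same arrays, which were not on a log scale and whose columns had log2 medians between 6.86 and 7.30. The matrix ranked probes as the scanner signal did (Spearman's rho of at least 0.987). The ICR columns, however, left out 599 to 4633 probes each and were scaled separately. The 5×FAD column also had a scale of its own, with a log2 median of 7.06, against 6.86 in NCSTN, MAPT, and cortex. The matrix therefore served as an alternative only. The software version was not given in the sources used here.

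From the deposited intensities, spots marked as outliers (110 to 234 per array) were left out, spots of 1 probe were averaged, and log2 of the processed signal was taken. As in the methods, a probe needed a foreground 1.4 times its local background, here on each of the 12 arrays, which 36520 of 39429 probes had. Quantile normalization followed. Accessions without versions were matched to the RefSeq gene table of GRCm38.p6, which named 69.8% of probes. Probes of a gene were averaged. The number of arrays, 1 for each model, limits the precision.

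The 36 genes and the lists beside them (82 other release genes and markers of 12 cell types or regions) were chosen with earlier results of these data known. Named genes were the 3 highest and 3 lowest on each array, those past 1.5-fold, the 5 largest differences each way between older and younger cortex and between Aβ and streptozotocin, and genes whose probes differ in sign. Other release genes were named past 2-fold with the brighter side well above background.

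The alternatives were scaling to the 75th percentile, the matrix, normexp background correction (offset 50), a 2-fold filter or none, the brightest probe, the median as the reference, the mean over genes, and each array left out. The files hold no mean foreground, so normexp used the median foreground. Keeping only probes well above background on all arrays and counting each probe once were added after seeing the data. The calculation was tested on simulated data. Python 3.11.15 (numpy 2.4.6, pandas 2.3.3, scipy 1.17.1, matplotlib 3.10.9) and R 4.3.3 with limma 3.58.1 were used.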

Additional observations from a re-analysis of the deposited data

Results flagged for a closer look

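Of 72 sets of arrays examined, 1 held a value far from the others. Vamp2, the main vesicle SNARE gene, had its highest cortex value at 17 months, with a ratio of 0.2924, and its gap to the nearest age was 0.26 on the log2 scale, or 0.859 of the range of the 4 ages. Chance alone flags about 1 in 20 such sets.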

How the results depend on the processing

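The median ratios of 5×FAD, MAPT, NCSTN, and streptozotocin 3 mg/kg kept their sign under every alternative other than leaving out an array. Of the small medians, those at 4, 17, and 22 months and at streptozotocin 2.5 mg/kg changed sign under some of these alternatives. Those at 1.5 months, at both Aβ doses, and with scopolamine kept their sign under them, though some moved in size. Scaling to the 75th percentile gave -0.11 at 1.5 months and -0.011 at 17 months, an older minus younger median of 0.061, and an Aβ minus streptozotocin median of -0.23 with 1 gene above. The matrix gave 0.085 at 17 months, -0.17 at Aβ 10 μM, 0.26 at streptozotocin 2.5 mg/kg, and -0.30 with scopolamine. It also gave an Aβ minus streptozotocin median of -0.28 with 0 genes above and 25 below, and 17 ICR values past 1.5-fold. It shifted the median of all genes to -0.14, 0.24, 0.10, and -0.22 at Aβ 10 μM, streptozotocin 2.5 and 3 mg/kg, and scopolamine. Normexp left 3, 14, and 3 values past 1.5-fold in cortex, transgenic, and ICR arrays, as its offset shrinks low signals. The 2-fold filter gave 0.0075 at 4 months and 0.084 at 17 months, and the brightest probe -0.0051 at 4 months and -0.0008 at streptozotocin 2.5 mg/kg. Probes well above background on all arrays gave 0.084 at 17 months and 7 cortex and 5 ICR values past 1.5-fold. The median as reference gave -0.0009 at 4, 0.061 at 17, and -0.0057 at 22 months, the mean over genes 0.0091 at 4 and 0.051 at 22 months, and each probe counted once -0.0020 at 4 months. Where no construction is named, the cause was not tested.

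With 1 array left out, the medians ranged from -0.054 to 0.0125 at 1.5 months, -0.017 to 0.0051 at 4, 0.068 to 0.089 at 17, and -0.051 to 0.032 at 22 months, and from -0.023 to 0.27 for NCSTN and 0.02 to 0.32 for MAPT. The older minus younger median ranged from 0.017 to 0.073 with 12 to 17 genes above and 7 to 11 below, and the Aβ minus streptozotocin median from -0.21 to -0.10 with 3 to 7 above and 21 to 26 below. These counts are larger because 1 side is then a single array. Sv2c in 5×FAD was 0.17 without NCSTN and -1.90 without MAPT, and Cplx2 in NCSTN was -0.022 without 5×FAD and 1.54 without MAPT. No paired analysis was possible because each group has 1 array. Signals close to background limit Syt2, Sv2c, and 1 probe of Syn3.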

Other observations

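Between regions of the C57BL/6 mice, 2 release genes had all 4 cortex arrays above all 3 transgenic hippocampus arrays with means at least 2-fold apart (3.59% of all genes), and 0 had them below (3.81% of all genes). Stx1a was between 12.97 and 13.41 in cortex and between 11.38 and 11.54 in hippocampus. Rims3 was between 6.07 and 6.34 in cortex and between 4.17 and 4.56 in hippocampus. Smaller differences without overlap, upward in cortex, included Cplx3 at 0.83, Vamp1 at 0.78, Sncb at 0.77, and Rims1 at 0.67, and the difference of Sypl was -0.31. Region cannot be told apart from transgene, age, and the sex that Xist marks.

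Syt10, one of the other release genes, differed most between the strains. Its log2 signal was between 13.14 and 13.66 on the 5 ICR arrays, between 5.45 and 5.84 on the 4 cortex arrays, 5.92 in NCSTN, 6.18 in MAPT, and 8.79 in 5×FAD. It has 1 probe. Strain cannot be told apart from treatment and age here.

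Over the 12 arrays, median ratios ran from -0.21 to 0.33 for astrocyte, -0.44 to 0.35 for endothelium, -0.38 to 0.23 for striatum, and -0.69 to 0.37 for pituitary markers. The summed signal of the 7 measured pituitary markers was 5876 in MAPT, against 516 in NCSTN and 521 in 5×FAD. Most of the MAPT sum was Prl, with a log2 signal of 12.35 against 3.24 in NCSTN and 3.56 in 5×FAD. Well above background were 5 of the 7 in MAPT, 2 in NCSTN, and 3 in 5×FAD, and 2 or 3 on each other array, so many pituitary ratios compare signals near background.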
